A study of Mus musculus with 25 samples.

Results

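The FOS and JUN families encode the subunits of the transcription factor AP-1, and their 7 genes (Fos, Fosb, Fosl1, Fosl2, Jun, Junb and Jund) were followed in mouse pituitaries given gonadotropin-releasing hormone (GnRH). They were chosen by gene symbol, and each matched 1 of the 47069 rows of the deposited expression table. All 7 reached the mean of 3 set for testing, as did 19141 genes in all. The pituitaries came from 25 hypogonadal (hpg/hpg) mice, which lack GnRH of their own because of a deletion in its gene, so every group, the controls included, developed without it. The groups were 8 GnRH males, 6 placebo males, 6 GnRH females and 5 placebo females. GnRH (1 µg) or saline was injected into the abdomen once a day for 10 days, and the animals were killed 1 h after the last dose. Polyadenylated RNA of 1 whole pituitary per label was sequenced. No ages are given in the sources used here, and no group had a single dose or a later time, so the last dose and the repeated dosing cannot be told apart.

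AP-1 binds DNA as a pair of basic leucine zipper proteins. FOS proteins cannot pair with themselves and need a JUN partner, whereas JUN proteins can pair with each other, with FOS proteins or with ATF proteins. Most of the subunit genes are immediate early genes, transcribed within minutes of a signal from existing kinases and factors. In gonadotropes, the pituitary cells that carry the GnRH receptor, GnRH signals through MAP kinases to AP-1, and AP-1 sites are known in the promoters of Fshb (the beta subunit of follicle-stimulating hormone, FSH) and Gnrhr.

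The promoters of 4 subunits are shown because the transcripts of Fos and Junb varied together across animals, as did those of Fosb and Jun. The sequences are RefSeq's for build GRCm38.p6, each the 120 bases before the annotated transcription start, on the strand of the gene. Capitals mark TGACG, the core of the cAMP response element bound by CREB and ATF proteins, TATAAA, the TATA box, and TGACATCA, an AP-1 site of the type that JUN and ATF2 pairs bind.
Fos, chr12:85473770-85473889, plus strand: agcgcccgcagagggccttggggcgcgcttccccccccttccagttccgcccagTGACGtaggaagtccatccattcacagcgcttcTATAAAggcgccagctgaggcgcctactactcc
Junb, chr8:84978749-84978868, minus strand: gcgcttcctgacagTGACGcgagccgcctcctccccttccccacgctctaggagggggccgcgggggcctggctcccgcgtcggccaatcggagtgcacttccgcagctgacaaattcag
Fosb, chr7:19310046-19310165, minus strand: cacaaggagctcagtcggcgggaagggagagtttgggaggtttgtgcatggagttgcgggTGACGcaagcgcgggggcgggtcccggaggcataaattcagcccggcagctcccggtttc
Jun, chr4:95052223-95052342, minus strand: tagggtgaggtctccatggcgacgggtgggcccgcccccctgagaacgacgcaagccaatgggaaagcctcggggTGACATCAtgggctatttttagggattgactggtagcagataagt

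Motifs were searched on both strands of the 250 bases before the start, except TATAAA, which was searched on the strand of the gene only. Positions are counted back from -1 at the base next to the start. The Fos window held TGACG at -129 to -125 and at -66 to -62, and TATAAA at -33 to -28. TGACG lay at -60 to -56 in Fosb and at -106 to -102 in Junb, and TGACATCA at -45 to -38 in Jun. Of 32851 RefSeq promoter windows of this length, 17.8% held TGACG, 7.59% TATAAA and 2.93% TGACATCA. The full response element TGACGTCA (1.55% of windows, each of which also holds TGACG), the AP-1 site TGACTCA (4.46%), the EGR site GCGTGGGCG (0.536%) and the CArG box bound by serum response factor (1.47%) were in none of the 6 subunit windows on hand. The Fosl2 and Jund windows held no motif that was searched. Both rest on starts that differ from the gene positions given below, which come from GENCODE: the Jund window lies upstream of the Jund gene, and the Fosl2 window lies inside the Fosl2 gene, past its first base. The Fosb and Junb starts also differ, by fewer bases, and their motif positions count from the RefSeq starts. The Fosb window, from 19310046, reaches into the Fosb gene, which begins at 19310051 on the minus strand. The Junb window, from 84978749, stops short of the Junb gene, which begins at 84978718 on that strand. These are matches of letters and were not tested as binding sites. Bases beyond the 250 were not searched, so a motif missing from a window may still lie farther upstream.

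Values are regularized log2 (rlog) expression values, scaled between libraries and shrunken by the authors before deposit, and a fold here is a fold on that scale. Transcript length is not part of them, so levels were compared between animals and not between genes. Library depth is unknown. Correlations between libraries lay between 0.992 and 0.998 and library medians between 8.09 and 8.13. Pituitary hormone genes were present in every library, and none of the 12 cell type marker lists had a member at 0 throughout. GnRH males 18 and 21 stood apart from the other animals, holding the 2 highest values of the 25 for 5 of the 7 subunits, so results that rest on them are given with and without both. This exclusion was chosen after their values were seen. Each library is a whole gland, so fewer cells of a type and less RNA per cell cannot be told apart.

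Fosb was the only AP-1 subunit called higher with GnRH after adjustment over all genes tested. The other 6 did not pass the test, which does not show that they were unchanged. The averaged limma intervals of Fosl1 (0.24 to 0.93), Jun (0.12 to 0.53) and Jund (0.05 to 0.24) also lay above 0. Those of Fos, Fosl2 and Junb included 0. These intervals are not adjusted for the number of genes tested. Fos, the founding member of the family, showed no detectable difference. In the comparison averaged over the sexes, 1 of 7 subunits was called at an adjusted p under 0.05 (limma, Benjamini-Hochberg over all genes tested), against 1.71% of all genes tested in either direction and 1.42% in the upward one. Within males (0.496% of all genes called) and within females (0.0993%) 0 of 7 subunits passed limma. At an unadjusted p under 0.05, 6 of 7 subunits were higher in males, against 4.17% of all genes, and 3 of 7 in females, against 5.11%. The median difference over the 7 subunits, GnRH minus placebo, was 0.55 in males, 0.15 in females and 0.33 averaged over the sexes, while the medians over all genes lay at 0.00 in the 3 comparisons. Differences lay above 0 for 7 of 7 subunits in males, against 48.5% of all genes, and 5 of 7 in females, against 50.1%. Without GnRH males 18 and 21 the male differences stayed above 0, from 0.12 for Fos to 1.02 for Fosb. Those of Fosl2 (0.39), Junb (0.35), Fosl1 (0.26) and Jun (0.25) were then smaller, and that of Jund was little changed (0.14). The exact permutation p in males was then under 0.05 for Fosb (0.0173) and Fosl1 (0.0498) and not for the other subunits.

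**Figure D1:**
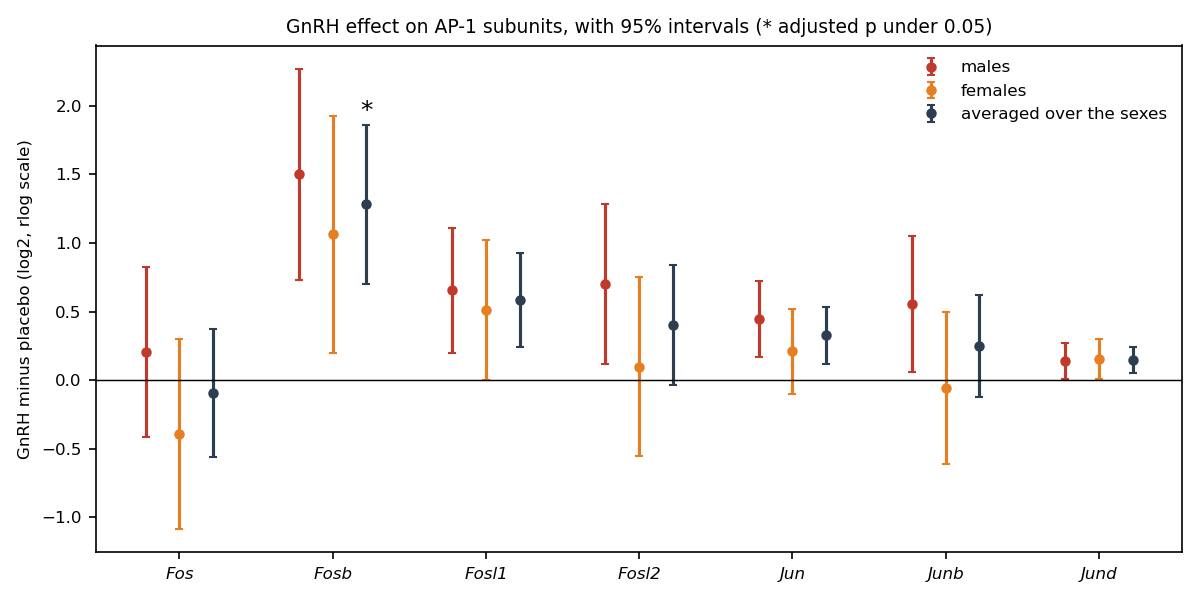
Each point is the difference GnRH minus placebo of 1 subunit on the log2 (rlog) scale, with its 95% limma interval, in males, in females and averaged over the sexes; the star marks the adjusted p under 0.05. Fosb lies highest in each comparison, at 1.50, 1.06 and 1.28, and the Fos intervals include 0.

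Fosb codes for a FOS protein that also exists as a truncated, long-lived splice form, and the table gives 1 value for the gene and does not separate the forms. It lies on chromosome 7 (19302696 to 19310051, minus strand, 3 to 5 exons by transcript, GRCm38). Fosb values in GnRH males had a lowest of 9.18, a median of 10.21 and a highest of 11.96, against 8.42, 8.75 and 10.18 in placebo males. In GnRH females they had a lowest of 8.37, a median of 9.61 and a highest of 10.38, against 8.21, 9.11, 9.31, 7.79 and 8.33 in the 5 placebo females. The groups overlapped in both sexes, with 5 of 8 GnRH males above every placebo male and 5 of 6 GnRH females above every placebo female. GnRH male 19 and GnRH female 10 were the lowest of their groups, and placebo male 13 was the highest placebo animal.

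Averaged over the sexes, Fosb was 1.28 higher with GnRH on the log2 scale (SE 0.28, 95% interval 0.70 to 1.86), a 2.43-fold difference with adjusted p = 0.0125 in limma. The difference was 1.50 in males (adjusted p = 0.0718) and 1.06 in females (adjusted p = 0.435). The male call was gained without placebo male 13 and without GnRH male 19 (adjusted p down to 0.0201). Exact two-sided permutation tests of Fosb alone gave p = 0.00533 in males and p = 0.0260 in females, among 14 such tests of the subunits that were not adjusted for one another. Without GnRH males 18 and 21 the averaged difference was 1.04 (adjusted p = 0.0148) and the male one 1.02 (adjusted p = 0.327, exact permutation p = 0.0173). The averaged call held with each of the 25 animals left out in turn (differences of 1.17 to 1.41, adjusted p from 0.00294 to 0.0329).

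Fos, on chromosome 12 (85473890 to 85477273, plus strand, 4 exons), is the classic immediate early gene, whose messenger RNA is made and destroyed quickly. Fos values in GnRH males had a lowest of 10.96, a median of 11.98 and a highest of 12.21, against 10.94, 11.52 and 12.42 in placebo males. GnRH females had a lowest of 9.92, a median of 10.44 and a highest of 11.33, against 9.72, 11.42, 12.10, 11.04 and 10.52 in placebo females. No GnRH animal of either sex exceeded the highest placebo animal of its sex. The difference was 0.21 in males (adjusted p = 0.999), -0.39 in females (adjusted p = 0.721) and -0.09 averaged over the sexes (limma 95% interval -0.56 to 0.37, adjusted p = 0.903). The upper bound of that interval, 0.37, lay below the lower bound of the Fosb interval, 0.70. Fosb and Fos had the highest and lowest averaged differences of the subunits, so this is a description and no test. Exact permutation tests of Fos gave p = 0.466 in males and p = 0.420 in females.

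**Figure D2:**
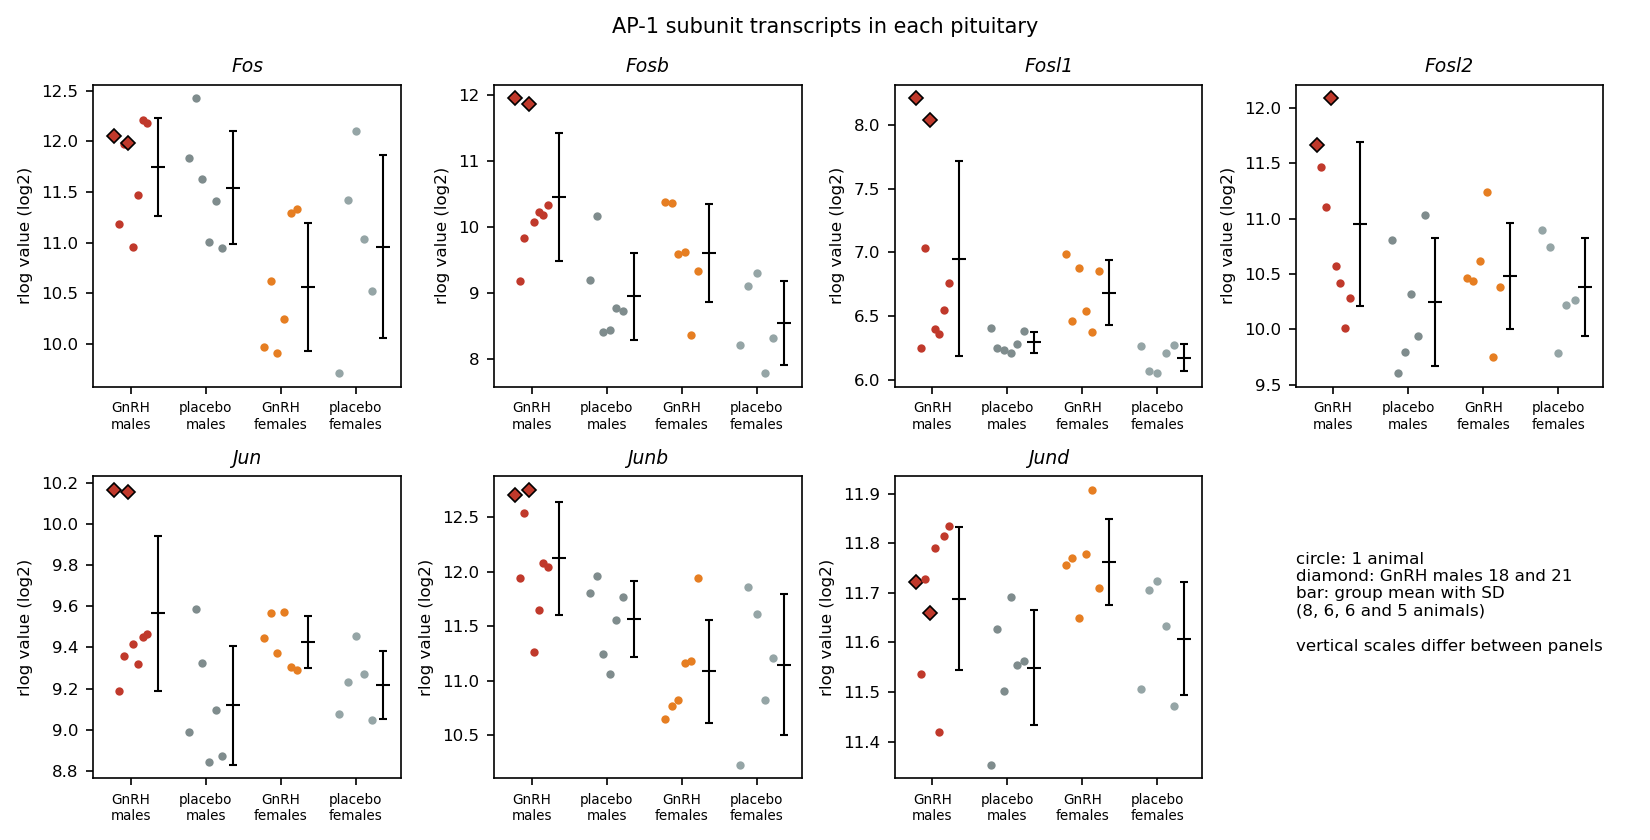
Each panel shows the rlog value (log2) of 1 subunit in each of the 25 pituitaries by group, with the group mean and SD; diamonds are GnRH males 18 and 21, and vertical scales differ. The GnRH and placebo points of Fos intermix in both sexes, most Fosb points with GnRH lie above those with placebo, and all 6 Fosl1 points of GnRH females lie above the 5 of placebo females.

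The gap between the pair was also taken within each animal, as the Fosb value minus the Fos value. This measure was chosen after both genes had been seen, so it is a description with no test, and no background over other gene pairs was computed. Its level has no meaning between genes, and its differences between groups do not depend on transcript length. In GnRH males it had a mean of -1.29 ± 0.85 (SD, n = 8), against -2.58 ± 0.36 in placebo males (SD, n = 6). In GnRH females it had a mean of -0.95 ± 1.25 (SD, n = 6), against -2.41 ± 0.66 in placebo females (SD, n = 5). All 8 GnRH males, from -2.13 to -0.10, lay above the highest placebo male at -2.21, although the Fosb values alone overlapped. Among females 4 of 6 GnRH animals exceeded the highest placebo animal, at -1.50, and the other two, animals 10 and 11 at -2.93 and -1.99, did not. Animals 10 and 11 had the highest Fos values of the GnRH females, 11.29 and 11.33.

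**Figure D3:**
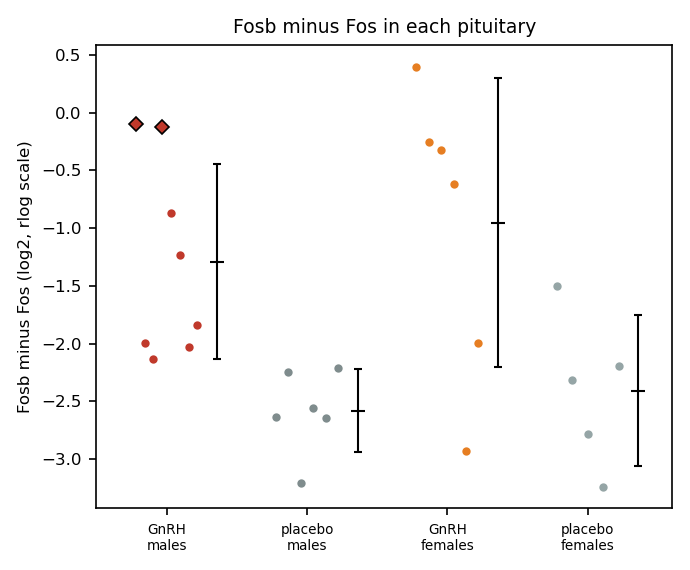
Each point is the rlog value of Fosb minus that of Fos in 1 pituitary (log2), by group, with the group mean and SD; diamonds are GnRH males 18 and 21. The 8 GnRH males lie above the 6 placebo males, and 4 of 6 GnRH females lie above the 5 placebo females.

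Fosl1 codes for FRA-1, a FOS protein without the strong activation domain of FOS, which is itself induced through AP-1 in many cells. It lies on chromosome 19 (5447547 to 5455946, plus strand). Fosl1 values in GnRH males had a lowest of 6.25, a median of 6.66 and a highest of 8.21, against 6.21, 6.27 and 6.41 in placebo males. In GnRH females they had a lowest of 6.38, a median of 6.70 and a highest of 6.99, against 6.26, 6.07, 6.05, 6.21 and 6.27 in placebo females. The female groups did not overlap, and 5 of 8 GnRH males exceeded every placebo male. In females 1 of 7 subunits was higher without overlap, against 0.528% of all genes tested, and in males 0 of 7, against 0.345%.

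The spread of Fosl1 was wider among GnRH males (SD 0.77, n = 8) than among placebo males (SD 0.08, n = 6), and animals 18 and 21, at 8.21 and 8.04, lay above the remaining GnRH males. The averaged difference was 0.58 (adjusted p = 0.0798 in limma), that in males 0.65 (adjusted p = 0.335) and that in females 0.51 (adjusted p = 0.522). The exact permutation p of Fosl1 was 0.0153 in males and 0.00433 in females, the smallest that 6 against 5 animals allow. Without GnRH males 18 and 21 the averaged difference was smaller, 0.39, and passed (adjusted p = 0.00864), while the male difference was 0.26 (exact permutation p = 0.0498). With sample weights the averaged difference of 0.62 also passed (adjusted p = 0.0400), as it did without GnRH male 19 or GnRH male 23. Of the 2033 exon bases of Fosl1, 1163 (57.2%) are shared with Ccdc85b on the opposite strand, whose own row was 0.24 higher with GnRH (adjusted p = 0.0248). The labels do not state whether reads were counted by strand, so the reads of the pair cannot be told apart and the Fosl1 values are uncertain.

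Fosl2, on chromosome 5 (32135801 to 32157842, plus strand), codes for FRA-2 and is the other FOS gene without a strong activation domain in its protein. Fosl2 values averaged 10.95 ± 0.74 in GnRH males and 10.25 ± 0.58 in placebo males (SD, n = 8 and 6), and 10.48 ± 0.48 in GnRH females and 10.38 ± 0.44 in placebo females (SD, n = 6 and 5). The groups overlapped in both sexes. The limma difference was 0.70 in males (adjusted p = 0.554), 0.10 in females (adjusted p = 0.939) and 0.40 averaged over the sexes (95% interval -0.04 to 0.84, adjusted p = 0.462). Its highest values, 12.09, 11.67 and 11.47, were in GnRH males 21, 18 and 19, and male 19 was the lowest GnRH male for Fosb.

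Jun codes for c-JUN, the strongest activator of its family, and its gene on chromosome 4 (95049034 to 95052222, minus strand) has a single exon. Jun values in GnRH males had a lowest of 9.19, a median of 9.43 and a highest of 10.17, against 8.84, 9.04 and 9.58 in placebo males. In GnRH females they had a lowest of 9.29, a median of 9.41 and a highest of 9.57, against 9.08, 9.23, 9.45, 9.27 and 9.05 in placebo females. All 14 GnRH animals lay above the placebo mean of their sex, but 2 of 8 males and 2 of 6 females exceeded every placebo animal of theirs. The averaged difference was 0.33 (adjusted p = 0.114), with 0.45 in males (adjusted p = 0.194) and 0.21 in females (adjusted p = 0.667). The exact permutation p of Jun was 0.0253 in males and 0.0476 in females, and without GnRH males 18 and 21 the male difference was 0.25 (exact permutation p = 0.0823). The averaged call was gained without placebo male 13 (adjusted p = 0.0496). Of its 3189 exon bases, 232 (7.28%) are shared with the antisense gene Junos, whose row was 0.23 higher with GnRH (adjusted p = 0.0442).

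Junb, on chromosome 8 (84974484 to 84978718, minus strand), codes for a weaker activator that can restrain c-JUN at some sites. Junb values in GnRH males had a lowest of 11.26, a median of 12.06 and a highest of 12.75, against 11.06, 11.66 and 11.96 in placebo males. In GnRH females they had a lowest of 10.65, a median of 10.99 and a highest of 11.94, against 10.23, 11.86, 11.61, 10.82 and 11.21 in placebo females. The groups overlapped in both sexes, and 5 of 8 GnRH males but 1 of 6 GnRH females exceeded every placebo animal of their sex. The difference was 0.55 in males (adjusted p = 0.650), -0.06 in females (adjusted p = 0.956) and 0.25 averaged over the sexes (adjusted p = 0.620). The exact permutation p of Junb was 0.0466 in males and 0.861 in females. In males it was 0.152 without animals 18 and 21 (difference 0.35) and 0.0519 after quantile normalization. Junb shares 173 of 2301 exon bases (7.52%) with Prdx2 on the opposite strand, whose row differed by 0.08 (adjusted p = 0.537).

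Jund, on chromosome 8 (70698949 to 70700616, plus strand), is the subunit gene that resting cells express steadily. Its values spanned 11.35 to 11.91 over the 25 animals, and the SDs of the 4 groups lay between 0.09 and 0.14. Jund averaged 11.69 ± 0.14 in GnRH males and 11.55 ± 0.12 in placebo males (SD, n = 8 and 6), and 11.76 ± 0.09 in GnRH females and 11.61 ± 0.11 in placebo females (SD, n = 6 and 5). The difference was 0.14 in males (adjusted p = 0.698), 0.15 in females (adjusted p = 0.495) and 0.15 averaged over the sexes (95% interval 0.05 to 0.24, adjusted p = 0.145). The exact permutation p of Jund was 0.0786 in males and 0.0346 in females, the second 0.0693 after quantile normalization. The averaged call was gained with sample weights (adjusted p = 0.0387) and without GnRH male 23 (adjusted p = 0.0470). Of its 1668 exon bases, 877 (52.6%) are shared with the antisense gene Gm11175, which is listed at 0 in all 25 libraries.

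A difference between the sexes in the response to GnRH was not detected for any subunit with these animals. The GnRH effect in males minus that in females was 0.61 for Junb, 0.60 for Fosl2, 0.60 for Fos, 0.44 for Fosb, 0.24 for Jun, 0.14 for Fosl1 and -0.01 for Jund, each with adjusted p = 0.999 in limma. In this comparison 0 of 19141 genes were called (0.0%), and 529 (2.76%) had an unadjusted p under 0.05, none of them a subunit. The 95% intervals were wide, -0.13 to 1.35 for Junb and -0.72 to 1.59 for Fosb, and do not show that the sexes respond alike. Without GnRH males 18 and 21 the male effect was 1.02 for Fosb and 0.26 for Fosl1, below the female effects of 1.06 and 0.51. The larger male effects of Fosb and Fosl1 thus rested on those animals. Without them the male effects of Fos (0.12), Junb (0.35), Fosl2 (0.39) and Jun (0.25) stayed above the female effects of -0.39, -0.06, 0.10 and 0.21. That of Jund, 0.14 with and without both animals, lay below its female effect of 0.15. Within placebo, males minus females differed by 0.58 for Fos, 0.42 for Junb and 0.41 for Fosb, and by -0.13 to 0.12 for the other 4, with 0 of 7 called by limma against 0.047% of all genes (adjusted p = 0.999 for each, and 0 of 7 at an unadjusted p under 0.05).

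Across animals, with the mean of each group removed, the subunits did not vary as 1 block. Fos and Junb varied together (Pearson's r = 0.73, Spearman's rho = 0.69, 25 animals), as did Fosb and Jun (r = 0.80, rho = 0.66). Permutation tests within groups gave adjusted p = 0.0016 for the r of Fos and Junb and 0.0011 for that of Fosb and Jun, adjusted over the 28 pairs of the 7 subunits and Atf3. The rho of both pairs had adjusted p = 0.0161. Without the animals farthest from the median on the x axis, r was 0.66 for Fos and Junb (placebo females 1 and 3 left out) and 0.67 for Fosb and Jun (GnRH males 18 and 21 left out, group means kept). With the group means also taken anew without males 18 and 21, r was 0.75 for Fos and Junb (adjusted p = 0.0073) and 0.62 for Fosb and Jun (adjusted p = 0.0366). Within single groups, the r of Fos and Junb was 0.73 in GnRH males, 0.56 in placebo males and 0.75 in GnRH females. That of Fosb and Jun was 0.98 in GnRH males, 0.66 in placebo males and 0.67 in GnRH females. Within placebo females no r was computed for either pair.

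Fos and Fosb showed a weak relation (r = 0.30, rho = 0.26, adjusted p = 0.259 for r). Within single groups r was 0.48 in GnRH males, 0.84 in placebo males and -0.64 in GnRH females, the only negative value of these. In placebo females no r was computed, and animal 3 had the highest value of both Fos (12.10) and Fosb (9.31). Other relations rested on GnRH males 18 and 21. That of Fosb and Fosl1 had r = 0.64 (rho = 0.42, adjusted p = 0.0414 for r) with both and 0.15 (adjusted p = 0.748) without them. For Jun and Fosl1 the values were 0.67 (rho = 0.29, adjusted p = 0.0802 for r) and -0.10. Fosl2 ran the other way from Fos, at r = -0.38 (rho = -0.40, adjusted p = 0.115 for r) with both animals and -0.57 (adjusted p = 0.0474) without them, but at -0.27 without placebo females 1 and 3.

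Atf3 codes for a stress-induced factor that pairs with JUN proteins, and the series takes its title from it. It was 2.18 higher with GnRH in males (adjusted p = 0.0172 in limma) and 1.98 in females (adjusted p = 0.135), and 2.08 averaged over the sexes (adjusted p = 0.000638). Exact permutation tests of Atf3, beside the 14 of the subunits, gave p = 0.00266 in males and p = 0.00433 in females. All 6 GnRH females lay above the 5 placebo females, an upward separation found in 0.528% of all genes tested. In males 7 of 8 GnRH animals exceeded every placebo animal. The male difference was 1.54 (adjusted p = 0.0606) when GnRH males 18 and 21 were left out. Its relation with Fosl1 had r = 0.85 (rho = 0.67, adjusted p = 0.0011 for r) and that with Fosb r = 0.79 (rho = 0.58, adjusted p = 0.0011 for r). Without GnRH males 18 and 21 these were 0.69 (adjusted p = 0.0637) and 0.61 (adjusted p = 0.0358). The relation of Jun with Atf3 had r = 0.66 (rho = 0.45, adjusted p = 0.0142 for r) in 25 animals and rested on the same 2 males, being 0.24 (adjusted p = 0.346) without them. With Fos (r = 0.05) and Jund (r = 0.03) Atf3 showed no detectable relation.

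**Figure D4:**
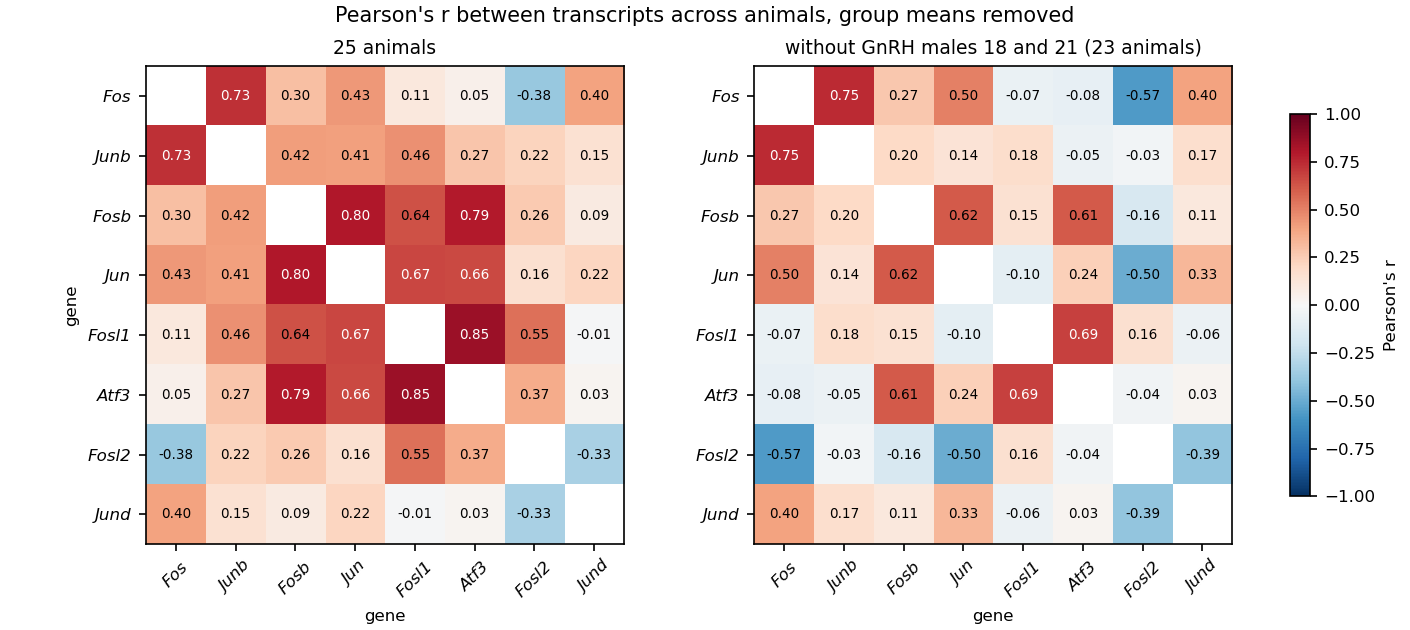
Each cell gives Pearson's r between a pair of transcripts across animals after group means are removed, for 25 animals on the left and for 23, without GnRH males 18 and 21, on the right. The r of Fos and Junb is 0.73 and 0.75, that of Fosb and Jun 0.80 and 0.62, and that of Fosb and Fosl1 0.64 and 0.15.

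The genes most like each subunit were sought by the same measure, r across the 25 animals with group means removed, among 14821 tested genes with an official symbol. They are a description with no test. Fos was most like Dusp1, a phosphatase that switches off MAP kinases (r = 0.80), and then Mycn and Wnt9a (0.79 each). Junb also had Dusp1 first (0.89), followed by the growth-restraining Btg2 and the immediate early gene Ier2 (0.86 each). Dusp1 and Btg2 themselves did not differ detectably with GnRH (0.06 and 0.13 averaged over the sexes, adjusted p = 0.922 and 0.790). Fosb had the early growth response gene Egr3 first (0.87), then Jun and Rgs2, a brake on G protein signalling (0.80 each), and Jun had Egr3 (0.84), Egr4 (0.81) and Fosb (0.80). Fosl1 was most like Rrad (0.91), F3 (0.90) and Arc (0.90), Fosl2 like Errfi1 (0.92), Slc25a25 (0.91) and Ndel1 (0.88), and Jund like Gltp (0.86), Bex3 (0.84) and Tmsb10 (0.82). Without GnRH males 18 and 21 the r with Dusp1 was 0.82 for Fos and 0.86 for Junb, and that of Fosb with Egr3 0.79. The r of Jun was then 0.56 with Egr3, 0.39 with Egr4 and 0.62 with Fosb, and that of Fosl1 0.80 with Rrad, 0.42 with F3 and 0.59 with Arc.

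The leucine zipper proteins that pair or compete with AP-1 moved in few cases. Of 27 such genes 26 were tested, and 3 rose with GnRH averaged over the sexes, 0 fell, and the median difference of the 26 was 0.05. Of all genes tested, 1.42% rose and 1.71% were called in either direction. The 3 were Atf3, Mafg (0.20, adjusted p = 0.0295) and Maff (0.49, adjusted p = 0.0420), the last pair being small MAF proteins that lack an activation domain. Of the 24 kinases and factors that act upstream of the subunits, 1 rose (against 1.42% of all genes) and 0 fell, with a median of 0.03. That gene was Srf, which codes for the serum response factor known to drive Fos (0.35, adjusted p = 0.0493). Among the 15 genes that degrade the subunits or switch the kinases off, 14 had a row, Rfwd2 being an older symbol of Cop1, and 0 of 14 passed limma, with a median of 0.10. At an unadjusted p under 0.05, 6 of the 14 were higher, against 6.51% of all genes tested. The smallest p among them belonged to the MAP kinase phosphatases Dusp5 (0.38, adjusted p = 0.118) and Dusp6 (0.20, adjusted p = 0.159).

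All the gene lists were chosen with earlier results of these data known. Their counts beside the share of all genes are therefore a description and not a test. Of 19 genes known from other work as AP-1 targets 16 were tested, and 7 rose (against 1.42% of all genes) and 0 fell, with a median difference of 0.09. They were Fshb (2.42, adjusted p = 4.55e-09), the matrix inhibitor Timp1 (0.79, adjusted p = 6.61e-05), the vessel growth factor Vegfa (0.50, adjusted p = 2.05e-05), the GnRH receptor gene Gnrhr (0.66, adjusted p = 0.00109), the secreted phosphoprotein Spp1 (0.95, adjusted p = 0.0107), Tgfb1 (0.32, adjusted p = 0.0107) and Hbegf (0.46, adjusted p = 0.0295). Of 27 other immediate early genes, 9 rose (against 1.42% of all genes) and 0 fell, all 27 differences were above 0 and the median was 0.32, whereas 49.4% of all genes tested lay above 0. Homer1, a scaffold of the synapse, led them (1.78, adjusted p = 0.000163), followed by the synaptic gene Arc (1.33, adjusted p = 0.0139) and the orphan receptor Nr4a3 (1.22, adjusted p = 0.00109). The other 6 were Npas4, Gadd45b, Gadd45g, Klf10, Klf2 and Maff, which is in both lists, with differences of 0.26 to 0.83.

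Within males 1 of the zipper partners (Atf3), 4 of the targets (Fshb, Gnrhr, Vegfa and Timp1) and 4 of the immediate early genes (Nr4a3, Gadd45g, Homer1 and Klf10) passed, against 0.496% of all genes. Within females 3 targets (Fshb, Vegfa and Timp1) passed and 0 of the other lists, against 0.0993% of all genes. With 1 animal left out in turn, Timp1 was called within females in 1 of 11 fits, the one without GnRH female 10 (adjusted p from 0.00608 to 0.151), and Vegfa in 8 of 11, being lost without placebo female 5, GnRH female 6 or GnRH female 11. Within males Atf3 was called in 12 of 14 such fits (lost without placebo male 12 or 14), Gnrhr in 12 of 14 (lost without placebo male 14 or 16) and Klf10 in 11 of 14 (lost without placebo male 13, 14 or 17). The averaged calls of Srf, Maff, Mafg, Klf2, Npas4, Hbegf and Arc were lost with no filter on low values (adjusted p from 0.0505 to 0.134). With 1 animal left out in turn, the averaged call held in 7 of 25 fits for Srf and for Klf2. It held in 9 for Maff, 17 for Mafg, 18 for Hbegf, 19 for Npas4 and 25 for Arc. Also lost with no filter were the calls of Atf3, Gnrhr, Nr4a3 and Klf10 within males (adjusted p from 0.0510 to 0.0691) and of Vegfa and Timp1 within females (adjusted p = 0.0521 and 0.142). Within males, Atf3, Nr4a3, Klf10 and Gadd45g did not pass without GnRH males 18 and 21 (adjusted p from 0.0522 to 0.0606).

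**Figure D5:**
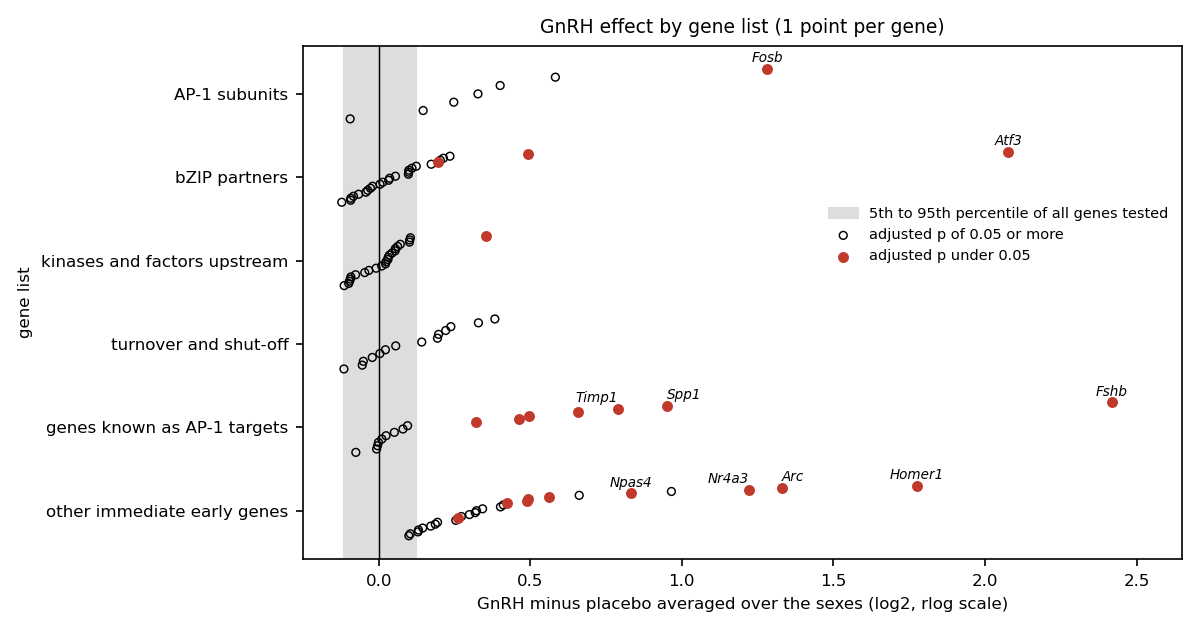
Each point is the difference GnRH minus placebo of 1 gene averaged over the sexes (log2, rlog scale), in 6 lists, filled where the adjusted p was under 0.05; the grey band runs from the 5th to the 95th percentile of all genes tested. All 27 other immediate early genes lie above 0, and Fosb is the filled point among the 7 subunits.

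Markers of 2 cell types moved with GnRH beside these genes, and their part in the results was not tested. In the comparison averaged over the sexes, 1.42% of all genes tested rose and 1.71% were called in either direction. Of the 5 gonadotrope markers 3 rose (Fshb, Gnrhr and Lhb), Nr5a1 fell by 0.38 and none was at 0. Their summed level on the log2 scale was 14.90 to 15.62 in GnRH males and 14.38 to 15.39 in placebo males, and 14.99 to 15.67 in GnRH females and 14.46 to 15.03 in placebo females. Of the 5 endothelial markers 2 rose (Emcn by 0.25 and Plvap by 0.18), the other 3 also had differences above 0, and none was at 0. Their summed level was 12.65 to 12.95 in GnRH males and 12.60 to 12.69 in placebo males, and 12.74 to 12.94 in GnRH females and 12.62 to 12.74 in placebo females. In the other 10 marker lists 0 genes passed in the averaged comparison.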

How the data were processed

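Polyadenylated RNA of 25 pituitaries, depleted of ribosomal and globin transcripts, was sequenced, per the labels' protocols. RNA integrity numbers were above 8.2 with a median of 9.1. The submitters' processing notes name STAR, featureCounts, bcl2fastq and mm10. Tool versions, annotation and strand setting are not given in those notes or the labels. The authors deposited log2 values, regularized (rlog) per the name of the table, which shrinks low genes towards their mean and understates their differences. The table holds no read counts, and depth per library is therefore unknown, with no interval or detection limit from it. The design text reports the raw data as no longer accessible.

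Samples were grouped by the sex and treatment in their labels. The design text speaks of fewer GnRH males than the labels, and the labels were followed. Nothing states whether animals shared cages, litters or days, so p-values measure the spread between these animals. The 19141 genes whose mean reached 3 were fitted with limma 3.58.1 (R 4.3.3), as 1 model of 4 group means (21 residual degrees of freedom, trended moderated variance). Its 5 contrasts were two-sided, adjusted by Benjamini-Hochberg over these genes, with a threshold of 0.05. The fit was tested on simulated data with 200 changed genes. Each simulated gene had the same spread in every group, so groups of unequal spread were not covered. Each subunit and Atf3 were also compared within each sex by an exact two-sided permutation test (scipy 1.17.1, Python 3.11.15). Relations across animals used deviations from group means and 100000 permutations within groups. Rows were matched by symbol, exon overlaps taken from GENCODE for GRCm38, and promoters from RefSeq, which listed 6 of the 7 subunits.

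Genes named were the subunits, Atf3, Fshb and Gnrhr whatever their values, list members past the threshold (otherwise the 2 with the smallest p), genes whose rows share exons with a subunit, and the 3 genes most like each subunit. The subunits and lists were chosen with earlier results of these data known. Alternatives were no filter or a mean of at least 6, quantile normalization, no variance trend, sample weights, robust variances, 1 sex per fit, each animal left out, and GnRH males 18 and 21 left out.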

Additional observations from a re-analysis of the deposited data

How the results depend on the processing

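The number of genes called moved with the settings, while the averaged Fosb call held in each setting tried (adjusted p from 0.00294 to 0.0465). In males 95 genes were called, against 42 with no filter on low values, 239 with sample weights, 38 without GnRH males 18 and 21, and 46 to 153 with 1 animal left out (46 without placebo male 14, 153 without GnRH male 19). In females 19 were called, against 7, 62, 32 and 4 to 67 (4 without GnRH female 6, 67 without GnRH female 10), and averaged over the sexes 327, against 942 with sample weights.

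Some differences and relations changed sign with the settings. Leaving out 1 animal gave -0.249 to 0.0487 for Fos averaged over the sexes, -0.0530 to 0.245 for Fosl2 in females, -0.287 to 0.119 for Junb in females, and, for the male minus the female effect, -0.0366 to 0.243 for Fosl1 and -0.0534 to 0.0239 for Jund. Sample weights gave 0.0782 for Junb in females and 0.000924 for the male minus the female effect of Jund. Without GnRH males 18 and 21 that difference was -0.0455 for Fosb and -0.248 for Fosl1, against 0.44 and 0.14 with them. Without them r turned to -0.0658 for Fos and Fosl1, -0.0844 for Fos and Atf3, -0.161 for Fosb and Fosl2, -0.101 for Fosl1 and Jun, -0.495 for Fosl2 and Jun, -0.0286 for Fosl2 and Junb, -0.0357 for Fosl2 and Atf3 and -0.0550 for Junb and Atf3. The cause was not tested.

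No paired analysis was possible because the groups share no animal numbers. No symbol of a subunit had a second row to try.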
